A study of Arabidopsis thaliana with 5 samples.

Results

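R-loops were mapped at 8 TCP transcription factor genes of Arabidopsis thaliana that are known for their part in leaf growth: TCP2 (AT4G18390), TCP3 (AT1G53230), TCP4 (AT3G15030), TCP10 (AT2G31070), TCP24 (AT1G30210), TCP14 (AT3G47620), TCP15 (AT1G69690) and TCP20 (AT3G27010). They were chosen by locus, out of 27444 nuclear protein-coding genes, and all 8 carry their TCP name in the RefSeq gene table. An overlap of 1 bp between a gene span and a peak was enough for the gene to be counted. DNA of 12-day-old wild-type Columbia seedlings was cut with restriction enzymes and DNA:RNA hybrids were pulled down with the S9.6 antibody, a method called DRIP. All 5 samples share this age, genotype and ecotype: 2 DRIP replicates, 2 DRIP samples whose DNA was digested with RNase H, which removes the RNA of a hybrid, and 1 input. Peak lists of the 2 DRIP replicates were used, together with a w and a c list of strand-specific peaks recorded under replicate 1. The RNase H samples and the input were not analysed here, so the sensitivity of these peaks to RNase H is unknown here.

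TCP proteins bind DNA through a shared basic helix-loop-helix type domain and fall into classes. The CIN class holds TCP2, TCP3, TCP4, TCP10 and TCP24, whose transcripts are cut by the microRNA miR319, and these factors end cell division and promote differentiation in the growing leaf blade. Class I members such as TCP14, TCP15 and TCP20 act on cell proliferation. R-loops, in which RNA is hybridised to its template DNA while the displaced DNA strand stays single, form in transcribed genes.

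The 4 lists held between 34069 and 47291 peaks, with median widths from 240 to 270 bp, and every peak passed a q-value of 0.05. Depth is unknown, because no read totals come with the lists. The fold of a peak is the authors' own ratio of signal to local background and was used to rank peaks within a list. Whether the replicates are separate batches of plants is not in the labels, and their SD may be technical. With 1 condition no test between conditions could be made, and none was made over the members. Peak lists hold no expression values, so the tissue label was not checked against marker genes. In whole seedlings, a hybrid present in few cells and a weaker one in many cells cannot be told apart.

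A DRIP peak was present in both replicates at 7 of the 8 genes, and at TCP20 in replicate 1 only. Among all nuclear protein-coding genes 60.6% carried a peak in both replicates, and among those between 1570 and 3446 bp long, the range of the 8 genes, 66.4% did. A peak in replicate 1 only was found in 6.74% of all genes. At least 2 peaks in each replicate were found in 6 of the 8 genes, all but TCP2 and TCP20, against 26.3% of all genes and 30.3% of genes in that range of length. Only 4 of the 8, TCP3, TCP4, TCP14 and TCP15, kept a peak in both replicates when peaks were limited to the upper 50% of each list by fold (42.2% of all genes), or when a single peak had to cover 10% of the gene (38.1%).

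**Figure D1:**
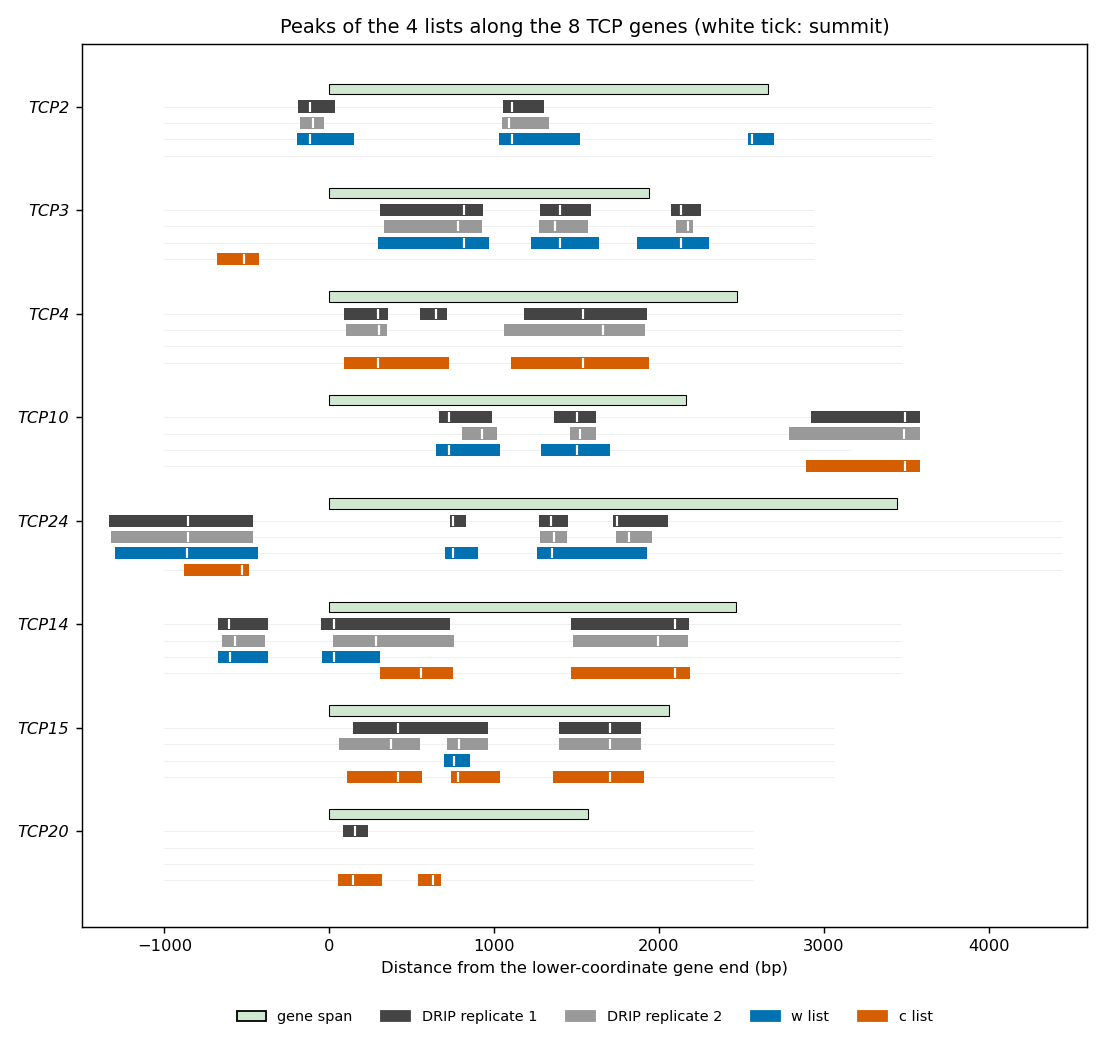
Peaks of the 4 lists along the 8 genes, by distance in bp from the lower-coordinate gene end, with gene spans in green, bars for peaks that reach within 1 kb of the gene, and white ticks for summits. TCP2, TCP3, TCP10 and TCP24 carry w bars and no c bar inside the gene, TCP4 and TCP20 c bars and no w bar, and TCP14 and TCP15 both.

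By the highest peak in each gene, folds ranked TCP15 first and TCP4 next in both replicates. The order depended on this choice: by the peak of largest overlap, the mean fold of TCP4 (5.31) was above that of TCP15 (5.08), and that of TCP3 (3.88) above that of TCP14 (2.92). The highest TCP15 peak had a fold of 6.14 in replicate 1 and 5.76 in replicate 2, a mean of 5.95 ± 0.269 (SD, n = 2). The values lay above 98.3% and 95.7% of the protein-coding genes that carried a peak in the same list. TCP15 acts together with TCP14 on cell proliferation, which they promote in young internodes and repress in developing leaves.

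The highest TCP4 peak had a fold of 5.5 in replicate 1 and 5.12 in replicate 2 (5.31 ± 0.271, SD, n = 2), above 94.3% and 88.9% of genes with a peak. TCP4 is the best studied target of miR319 in the leaf and activates LOX2, a gene of jasmonate synthesis. TCP14, which also acts in germinating seeds, followed with 4.3 and 4.37 (4.33 ± 0.0496). TCP3, an activator of genes that restrict the shoot organ boundary, had 4.07 and 3.68 (3.88 ± 0.27).

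TCP2 had 3.75 in replicate 1 and 2.93 in replicate 2 (3.34 ± 0.582, SD, n = 2). These values come from different peaks: the replicate 1 value belongs to a peak over the lower-coordinate gene end that overlapped the gene by 35 bp, and its replicate 2 counterpart, of fold 3.29, ended 34 bp outside. TCP24 had 2.84 and 2.82 (2.83 ± 0.0102) and TCP10 had 2.85 and 2.29 (2.57 ± 0.4). The TCP10 values also come from different peaks, so their SD is not the spread of a single peak. The replicate 2 counterpart of the 2.85 peak had a fold of 2.27, and the replicate 1 counterpart of the 2.29 peak had 2.36. TCP10 lay above only 21% of genes with a peak in replicate 1 and 6.13% in replicate 2.

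The replicate values of TCP15, TCP4, TCP14 and TCP3 did not overlap between neighbours in this order. Those of TCP3 and TCP2 overlapped, and so did those of TCP24 and TCP10, which changed places between the replicates. Over the members with a peak the median highest fold was 3.91 in replicate 1 (8 genes) and 3.68 in replicate 2 (7 genes), close to 3.67 and 3.58 over all protein-coding genes with a peak. The 8 genes lay on both sides of the genome-wide median, from TCP20 and TCP10 below it to TCP15 above.

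**Figure D2:**
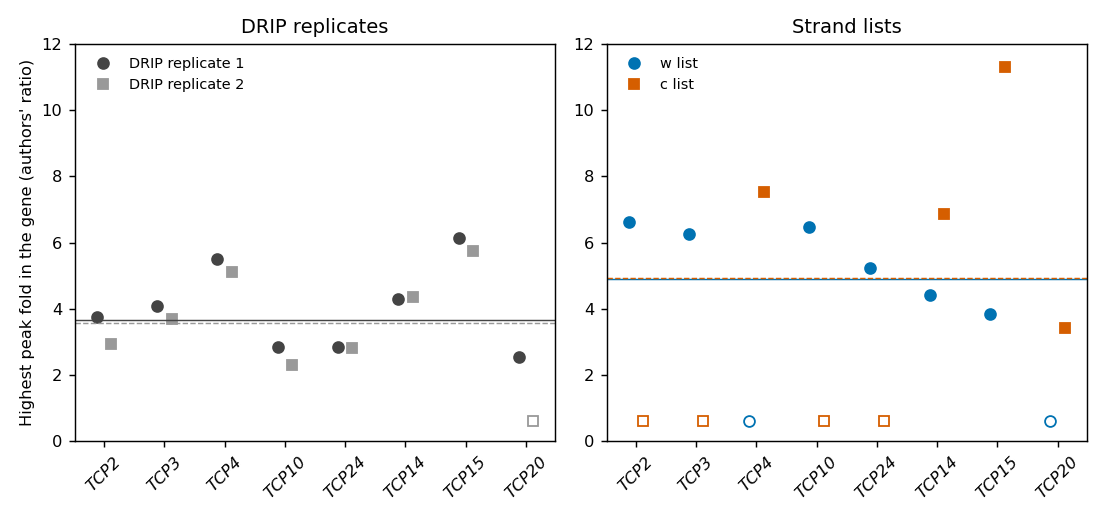
Highest peak fold (the authors' ratio) in each of the 8 genes, for the DRIP replicates on the left and the w and c lists on the right. Lines give the median over all protein-coding genes with a peak (solid for replicate 1 and w, dashed for replicate 2 and c), and open symbols at the bottom mark genes with no peak in that list, such as TCP20 in replicate 2.

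TCP20, whose protein binds promoters of cell cycle genes and acts in nitrate signalling, had the weakest signal. Its single DRIP peak, at chromosome 3, 9957462 to 9957613, had a fold of 2.55 and a -log10 q-value of 4.98 in replicate 1. Of the 9102 replicate 1 peaks with a -log10 q-value from 4 to below 6, 57.2% were met by a replicate 2 peak, so a loss at this level was common in the whole list. The other replicate 1 peaks not met in replicate 2 were one in TCP4 (-log10 q-value 3.4) and one in TCP24 (3.36), in a range from 3 to 4 where 38.4% of all peaks were met. In all, 14 of 17 replicate 1 peaks in the members were met by a replicate 2 peak, against 79.5% of all replicate 1 peaks, and 14 of 14 replicate 2 peaks by a replicate 1 peak, against 95.1%.

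The share of a gene under peaks separated the members more widely than fold. DRIP peaks covered 61.8% ± 2.78 of TCP15, 58.3% ± 0.229 of TCP14, 46.9% ± 1.61 of TCP3 and 46% ± 2.17 of TCP4 (SD, n = 2). They covered 21.9% ± 6.56 of TCP10, 14.4% ± 4.7 of TCP24 and 10.7% ± 0.133 of TCP2. TCP20 had 9.68% covered in replicate 1 and 0 in replicate 2. Over all protein-coding genes with a peak the median was 19.9% in replicate 1 and 19.6% in replicate 2, and the upper quartile began at 34.7% and 34%. TCP15, TCP14, TCP3 and TCP4 thus lay in the upper quartile of both replicates, and TCP2 and TCP24 below the median. For TCP2, TCP10 and TCP24 this share rests on weak peaks: with the upper 50% of peaks by fold it was 0.657%, 0 and 0. Under the same limit the mean share fell to 32.4% in TCP4, 43.5% in TCP14, 55.8% in TCP15 and 0 in TCP20. In TCP3 it stayed at 46.9%. The share under that limit was not computed over all genes.

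**Figure D3:**
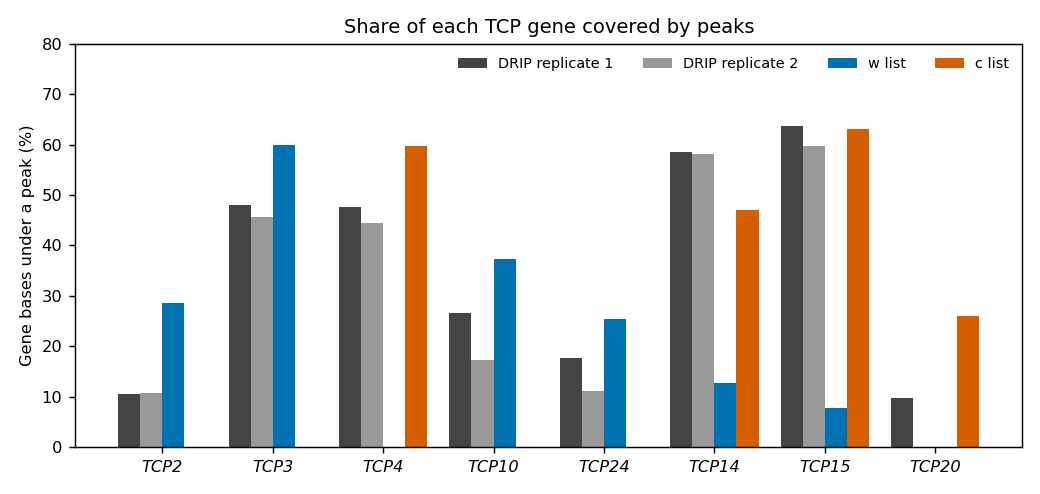
Percent of each gene's bases under peaks of DRIP replicate 1, DRIP replicate 2, the w list and the c list, one bar per list. TCP15 reaches 63.7% in replicate 1 and TCP20 0 in replicate 2, and 6 of the 8 genes have no bar for one of the strand lists.

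The strand lists placed peaks of 6 of the 8 genes in one list alone. A w peak was found at 6 of the 8 genes, beside 54.9% of all protein-coding genes, and a c peak at 4, beside 54.8%. TCP2, TCP3, TCP10 and TCP24 carried w peaks and no c peak, as did 24.2% of all protein-coding genes, and TCP4 and TCP20 carried c peaks and no w peak, as did 24.1%. TCP14 and TCP15 carried both, as did 30.7%. Exactly 1 strand list was found at 61.1% of all genes with a w or c peak, so 6 of 8 is not far from the background. The names w and c stand for opposite strands, and the gene table used gives no direction of transcription. Whether the RNA of a peak ran with or against its gene was therefore not settled for any member. With 1 kb added on either side of the genes, 7 of the 8 reached a c peak (71.4% of all genes) and 5 reached both lists (51.5%).

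All 5 miR319-regulated CIN genes had peaks in 1 strand list only, as did 61.1% of all genes with a w or c peak, and TCP3, TCP10 and TCP24 reached a c peak when 1 kb was added on either side. The highest w fold was 6.63 in TCP2, 6.27 in TCP3, 6.48 in TCP10 and 5.22 in TCP24, above 78%, 73.5%, 76.1% and 55.9% of genes with a w peak. TCP2, TCP3, TCP10 and TCP24 all ranked higher among genes in the w list than in either DRIP list. How common this is among all genes with w peaks alone was not counted. The c fold of TCP4 was 7.54, above 88% of genes with a c peak. TCP4 did not rank higher there than in the DRIP replicates, where it lay above 94.3% and 88.9%.

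TCP15 had a c fold of 11.3, rank 14 of 15043 genes with a c peak, at chromosome 1, 26216117 to 26216572. Its w peak, with a fold of 3.83, spanned 160 bp and overlapped a weaker c peak, of fold 2.79, by 114 bp, at a place where a replicate 2 peak of fold 2.29 also lay. TCP15 was thus covered to 63.1% by c peaks and to 7.76% by w peaks.

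In TCP14 a w and a c peak met end to end by their listed coordinates. A w peak at chromosome 3, 17558747 to 17559102 (fold 4.42), was followed by a c peak from 17559100 to 17559540 (fold 3.99), with 3 bp in common, and a single DRIP peak of each replicate overlapped both. A stronger c peak, of fold 6.85, lay at 17560259 to 17560979. The 3 bp and the 114 bp in TCP15 were the only bases shared by w and c peaks within the 8 genes. Over the whole lists, w and c peaks had most bases in genes at shifts of -100 and 100 bp. Whether this bears on overlaps of such size was not tested.

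TCP20 had 2 c peaks, of fold 2.96 and 3.41. The first overlapped its DRIP peak of replicate 1, and the second was met by no DRIP peak. Of the 21 w and c peaks in the members, 2 were met by no DRIP peak, that one and a w peak of fold 2.21 at the higher-coordinate end of TCP2, against 25.5% of all w and c peaks.

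The strand lists are not an independent sample beside replicate 1. Of the 21 w and c peaks in the members, 14 had their summit on the very base of a replicate 1 summit and 0 on that of a replicate 2 summit. Over all w and c peaks these shares were 37.3% and 2.83%. Of the bases under peaks of both replicates, w or c peaks covered 100% in TCP2, TCP3, TCP4, TCP10, TCP14 and TCP15 and 91.6% in TCP24. This cover was not computed over all genes. In the whole lists, only 1.03% of replicate 1 peaks and 1.32% of replicate 2 peaks were met by neither w nor c.

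Positions along the gene were measured from the lower-coordinate end. In TCP3, DRIP summits of replicate 1 lay 816 and 1399 bp in, and those of replicate 2 at 783 and 1367 bp, in a gene of 1938 bp. An annotated long noncoding RNA gene, AT1G53233, overlaps TCP3 by 1525 bp, and the peaks of both genes cannot be told apart there. The main TCP4 peak, at chromosome 3, 5062863 to 5063610 in replicate 1, had its summit 1539 bp into a gene of 2472 bp, and in replicate 2 at 1660 bp. The TCP15 peak of highest fold lay nearer to the lower end, with summits at 416 and 377 bp in a gene of 2063 bp, and a second peak had its summit at 1701 and 1702 bp.

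In TCP10 the summits lay at 726 and 1503 bp in replicate 1 and at 927 and 1522 bp in replicate 2, of 2165 bp. In TCP24, the longest member with 3446 bp, all DRIP peaks lay between 732 and 2053 bp, and none reached either gene end. Within 1 kb outside the gene, TCP3, TCP10, TCP24 and TCP14 had further DRIP peaks in both replicates, 4 of the 8, beside 43.9% of all protein-coding genes. The replicates shared most of their covered bases in TCP14 (Jaccard index, shared over all covered bases, 0.959) and TCP3 (0.94), fewer in TCP15 (0.817), TCP2 (0.767) and TCP4 (0.756), and fewest of the genes with peaks in both in TCP24 (0.625) and TCP10 (0.568).

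Within the TCP family, 14 other genes were named in the table and used for comparison. Of these, 12 had DRIP peaks in both replicates, beside 60.6% of all protein-coding genes. TCP16 and TCP17 carried a peak in none of the 4 lists, and 31.2% of all protein-coding genes had no DRIP peak in either replicate. TCP16 is the shortest TCP gene used, with 498 bp, while TCP17 spans 1678 bp. TCP21, a class I gene also known as CHE and listed as TCP11 in the table, led the family with folds of 6.54 and 6.77, ahead of TCP22 (5.9 and 6.4) and TCP15. TCP22 had only 6.23% and 7.16% of its bases under those peaks. TCP7 (5.9 and 5.81) and TCP1 (5.82 and 5.67), a gene of the CYC/TB1 class, lay near TCP15.

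The other genes with peaks in both replicates had smaller-of-replicates folds from 2.1 in TCP13 to 4.71 in TCP23. TCP18, known as BRC1, which holds axillary buds at rest, had 4.91 and 4.32, and TCP12, known as BRC2, had 4.23 and 4.02. TCP19 had 4.59 and 4.72, TCP8 had 3.51 and 3.2, TCP9 had 3.11 and 3.38, and TCP5, a CIN gene without a miR319 site, had 3.91 and 2.83. The median smaller fold was 4.71 over 9 class I genes with peaks in both replicates, 2.83 over 7 such CIN genes and 3.51 over all such protein-coding genes. TCP4, at 5.12, had the highest smaller fold of the 7 CIN genes, and TCP3 came next with 3.68.

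Both strand lists met 8 of 11 class I genes, 1 of 8 CIN genes (TCP13) and 3 of 3 CYC/TB1 genes. Of the remaining CIN genes TCP5 had a w peak alone (fold 7.22), like TCP2, TCP3, TCP10 and TCP24, and TCP17 had none. Of the remaining class I genes TCP19 (c fold 9.04) and TCP20 had c peaks alone. These counts are a description of the family, without a test, beside the 30.7% of all protein-coding genes with both. Some rest on small covered shares. The w peaks covered 7.76% of TCP15 and 8.25% of TCP13, c peaks 6.25% of TCP9, and each list 7.22% of TCP22. With 1 kb added on either side, the CIN genes TCP3, TCP10 and TCP24 reached both lists too, as did 51.5% of all genes. The TCP genes outside the 8 members were not counted by that rule.

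**Figure D4:**
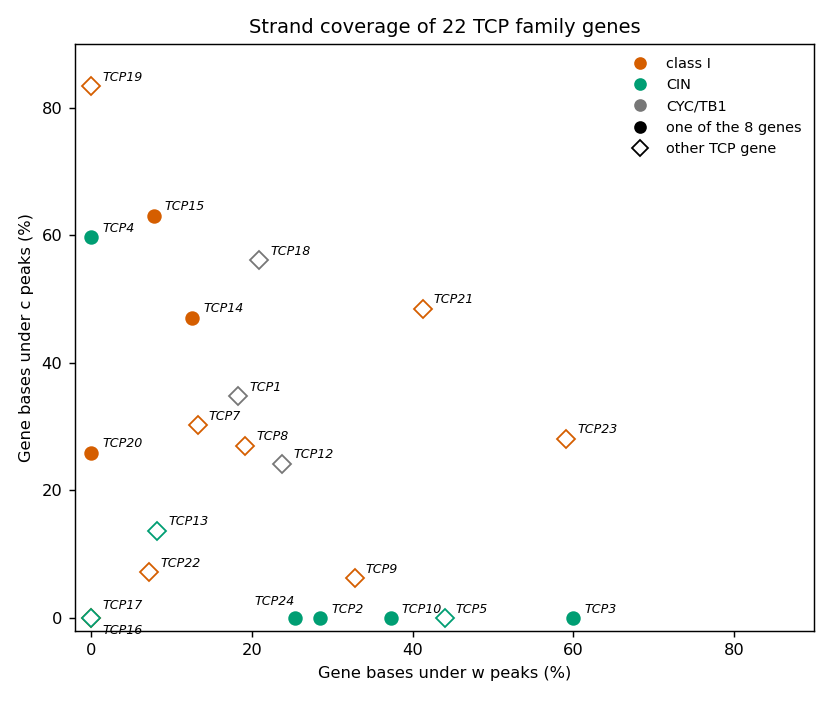
Percent of gene bases under w peaks (x axis) against percent under c peaks (y axis) for 22 TCP genes, with class by colour, filled circles for the 8 leaf growth genes and open diamonds for the other 14. Of the CIN genes only TCP13 lies away from both axes, while 8 of 11 class I genes do.

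Among the genes of miR319 itself, MIR319a, the locus of the jaw mutant with crinkled leaves, carried a DRIP peak of fold 3.35 in replicate 1 and 2.74 in replicate 2, and a c peak of fold 6.22. MIR319b and MIR319c carried a peak in none of the 4 lists. These genes span 172 to 199 bp in the table, less than the median peak.

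Among 23 known partners and targets of TCP factors, 21 are protein-coding genes, and of these 15 had DRIP peaks in both replicates and 3 in neither, beside 60.6% and 31.2% of all protein-coding genes. The other 2, the short microRNA genes MIR164a and MIR396b, had none in either. By the smaller of the replicate folds the highest were AS2, a leaf polarity gene (5.58 ± 0.00397, SD, n = 2), CUC2, an organ boundary gene (5.59 ± 0.238), KNAT2, a meristem homeobox gene (5.56 ± 0.367), and KRP1, an inhibitor of cyclin-dependent kinases (4.9 ± 0.07). LOX2, the target of TCP4, had 2.55 and 2.29. No DRIP peak was found at SHY2, an auxin response repressor gene with a w and a c peak, or at ARR16, a cytokinin response gene with a c peak. TIE1, the other protein-coding gene without a DRIP peak, had none in the w and c lists either. The microRNA of MIR164a cuts CUC1 and CUC2 transcripts. PCNA2 and CYCB1;1, cell cycle genes with promoters bound by TCP20, had replicate 1 folds of 2.23 and 3.03, and PCNA2 had no replicate 2 peak.

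The 3 protein-coding genes whose highest folds in the 4 lists were most like those of TCP15 were AT1G74940, AT1G49580 and AT4G13070. Likeness was the Euclidean distance of log2 folds over the 4 lists, and it was 0.14, 0.16 and 0.20. AT1G74940 had folds of 6.06 and 5.67 in the DRIP replicates, 3.54 in w and 10.7 in c.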

How the data were processed

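The submitters' processing notes name CASAVA, BWA 0.7.12, MACS2 and the TAIR10 genome. What settings and control MACS2 had, and whether samples were merged, is not given in the sources used here. Of the deposited columns, fold is a linear ratio and was computed by the authors, as were -log10 of the p-value and of the q-value. The deposited score, a rounded form of the q-value, was not used. Gene spans came from the RefSeq table of TAIR10.1, and only peak coordinates, counted from 1, are printed. Shifting the DRIP peaks in steps of 50 bp placed most bases in protein-coding genes at a shift of 0 bp. For w and c that shift was -100 and 100 bp, while their summits often fell on those of replicate 1. The table gives no transcribed strand, exons or sequence, and none is printed.

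Python 3.11.15 with pandas 2.3.3 and numpy 2.4.6 was used. The overlap join was tested on simulated data. Genes named were the 8 members, the TCP family and MIR319 genes, of partners and targets the 4 whose smaller replicate fold was highest and the first 3 without a DRIP peak, and the 3 genes nearest to TCP15. LOX2, PCNA2, CYCB1;1, TIE1 and MIR396b were named in addition, after their values were seen. The TCP6 and TCP11 entries of the family list had no unambiguous name in the table and were not used. Members and lists were chosen with earlier results of these data known. Alternatives were the overlap rule, 1 kb flanks, stricter peaks and leaving out a replicate.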

Additional observations from a re-analysis of the deposited data

How the results depend on the processing

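The count of members with a DRIP peak in both replicates, 7, was 4 when a single peak had to cover 10% of the gene and 4 with the upper 50% of peaks by fold. It was 7 without replicate 1, where 62% of all protein-coding genes had a peak, and 8 without replicate 2, where 67.3% had. The count with a c peak, 4, was 7 with 1 kb added on either side. The count with both a w and a c peak, 2, was 5 with 1 kb added. It was 1 when a single peak had to cover 10% of the gene and 1 with the upper 50% of peaks by fold. The share of all genes with both was not counted under those stricter rules. The other alternatives left the counts of 7, 4 and 2, and the count of 6 with a w peak, within 1.5 times. Mean folds moved by more than the replicate SD (n = 2) in 3 of 7 members with the peak of largest overlap. With a mean weighted by overlapped bases they did so in 4 of 7. These counts depend on that SD, which ran from 0.0102 in TCP24 to 0.582 in TCP2. For TCP2 and TCP10 it is not the spread of a single peak. TCP14 was at 2.92 and 3.61 under these 2 alternatives, in place of 4.33. TCP14 then ranked below TCP3 (3.88 and 3.85) in both, and TCP15 (5.08) below TCP4 (5.31) with the peak of largest overlap. No paired analysis was possible because the peak lists analysed come from 1 group. Depth is unknown, so a missing peak is not shown to be a missing R-loop.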

Other observations

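The DRIP peaks within 1 kb outside TCP14, TCP3, TCP10 and TCP24, a count of 4 of 8 that is near the 43.9% of all protein-coding genes with such peaks in both replicates, had the following values. Next to TCP14, DRIP peaks of fold 4.71 in replicate 1 and 3.02 in replicate 2, and a w peak of fold 7.07 at chromosome 3, 17558118 to 17558421, ended 371 to 387 bp from the lower-coordinate gene end, and no other annotated gene lies within 1 kb of TCP14. Next to TCP3, DRIP peaks of fold 3.26 and 2.09 lay 135 and 166 bp beyond the higher-coordinate end, within the span of AT1G53233. Next to TCP10, DRIP peaks of fold 3.13 in each replicate and a c peak of fold 3.86 lay in the pseudogene AT2G31080. Next to TCP24, the protein-coding gene AT1G30200, 49 bp away, held DRIP peaks of fold 5.21 and 4.84 and a w peak of fold 8.03. Each was higher than the peaks of the same list inside TCP24. AT1G30200 also held a c peak of fold 3.44.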
